A study of Mus musculus with 6 samples.

Results

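The 40 genes described here are mitotic and cell cycle genes of the mouse. They were chosen as a list of symbols with earlier results of these data known. They were looked up in the deposited count table of a retinal RNA sequencing study. All 40 were present among its 23420 genes. By role they comprised 2 chromosome-associated proteins of proliferating cells, 6 cyclins and their partners, 9 mitotic kinases and checkpoint proteins, 10 motor and spindle proteins, 2 proteins of cytokinesis, 2 of the anaphase-promoting complex pathway and 9 of DNA replication and nucleotide supply. The study asked how bright light, and minocycline given with it, change gene expression in the retina, and held 3 groups of 2 libraries. Control retinas came from mice without treatment. Light retinas were taken 4 days after 1 h of white light, given as 10000 lux in the labels and 15000 lux in the methods, after 16 h in darkness and pupil dilation. The third group received the same light and minocycline, a tetracycline that dampens microglial activity, at 45 mg/kg into the peritoneum, daily for 4 days by the labels and from 1 day before the light, with 2 injections a day at the beginning, by the methods. The labels name the strain CD1 and the methods BALB/cJ, both albino, and the methods give an age of 10 to 14 weeks and both sexes, so strain and light dose are not settled by the sources. No vehicle injection is named for the control or light libraries. The libraries are called biological replicates in the methods, without a statement on pooling of animals. The 2 minocycline columns carry the same header and are called A and B here.

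Cells that divide copy their DNA in S phase and separate the copies in mitosis. Cyclins switch on cyclin-dependent kinases, the MCM helicase opens the DNA for copying, ribonucleotide reductase and thymidylate enzymes supply the building blocks, and kinesins, Aurora and Polo-like kinases and the spindle checkpoint arrange and part the chromosomes. Many of these transcripts are made only in cycling cells, so Mki67 and Top2a are widely used as marks of proliferation. Neurons and photoreceptors of the adult mouse retina are postmitotic, Müller glia are quiescent, and microglia, the resident macrophages, can divide after injury.

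The libraries held 15205930 to 22856922 counts, and 16594 to 17421 genes were detected in each. A level is given as CPM, which is counts scaled to library size with TMM factors, and a level compared between genes as RPKM, which is also divided by exon length. In a control library 3 counts, the detection limit used here, equal 0.213 and 0.211 CPM, against 0.131 to 0.175 CPM in the other 4 libraries. Rod photoreceptor markers, 6 genes, summed to 80893 and 60582 CPM in control, 44364 and 31039 after light and 65324 and 73013 with minocycline, so the main cell type of the labelled tissue was present. The libraries also differed in ways the groups do not name. Control replicate 1 was the only library with abundant Xist, at 77778 counts against 25 to 188 in the others. The 4 lens markers summed to 121.6 CPM in light replicate 1 and to at most 11.7 CPM elsewhere. The 9 markers of surface epithelium summed to 191.7 and 268.8 CPM and the 6 of pigment cells to 254.0 and 1100.1 CPM in the minocycline libraries, against at most 16.2 and 125.0 CPM in the other 4. The 5 pericyte and smooth muscle markers likewise summed to 98.7 and 349.3 CPM with minocycline and to at most 46.0 CPM elsewhere. Their part in the results below was not tested.

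In the control retina the levels of the cell cycle genes spanned a wide range. Of the 40, 10 reached 100 counts in at least one control library, 16 stayed under 10 counts in each, and 14 lay between. Ccna2, which encodes cyclin A2 of S and G2 phase, had the highest mean control level per length, at 28.2 RPKM. It was followed by Pcna, the sliding clamp of DNA polymerase that also serves DNA repair, at 19.5 RPKM, Rrm1, the large subunit of ribonucleotide reductase, at 9.91 RPKM, Racgap1, a regulator of cytokinesis, at 9.90 RPKM, and Bub1b, a checkpoint protein, at 6.67 RPKM. Rrm1 and Racgap1 were not distinguishable, since their control libraries overlapped in RPKM. Mcm2 of the MCM helicase, Tyms, the thymidylate synthase, Ccne2, which encodes cyclin E2 of the G1 to S transition, Cenpe, a kinetochore motor, and Kif4, a chromosome-bound kinesin, ranged from 4.70 to 1.90 RPKM.

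At the other end, Pbk, Ccnb1 and Melk had 0 counts in both control libraries, and with 3 counts over the group as the limit their level could be up to 0.106 CPM. Another 5 members, Cdk1, Bub1, Aurkb, Ube2c and Rrm2, had 1 to 3 counts over both. Mki67, a protein that coats mitotic chromosomes, was at 0.025 RPKM in control and Top2a, the topoisomerase that disentangles replicated DNA, at 0.027 RPKM. Of the kinases that cyclin A2 binds, Cdk1 was at 0.024 RPKM in control, while Cdk2, which is not among the 40, held 50 and 61 counts. Ccna2 shares 378 exon bases with Exosc9 on the opposite strand, which held 394 and 324 counts in control against 1225 and 1669 of Ccna2. The use of the strand in counting is not stated, and the part of that overlap in the Ccna2 count was not tested.

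**Figure D1:**
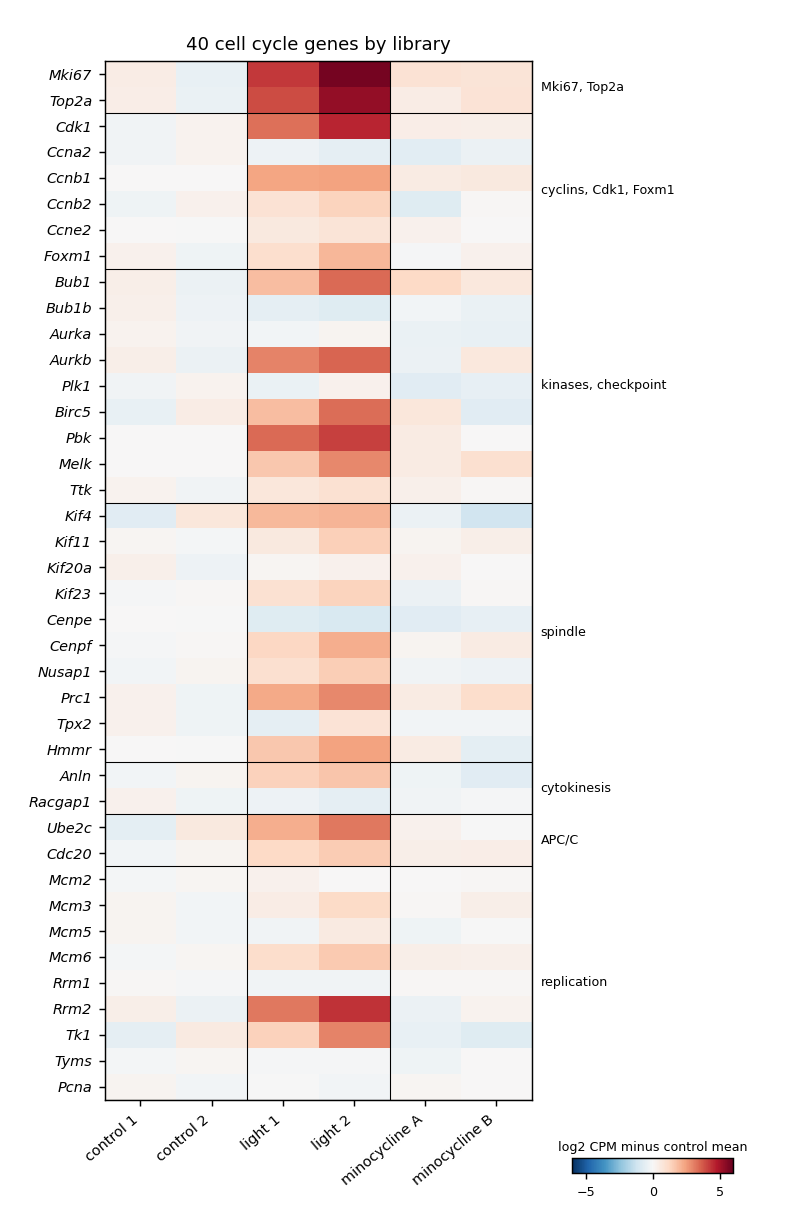
Level of the 40 members in each of the 6 libraries, as log2 CPM (prior count of 2) minus the mean of the control libraries, with members in rows ordered by role and libraries in columns. The light libraries are red in most rows, deepest for Mki67 and Top2a and deeper in light replicate 2 than in light replicate 1, while Ccna2, Bub1b, Cenpe, Racgap1, Rrm1, Tyms and Pcna stay pale or turn blue.

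After light the members called higher were low in control. All 10 of them were among the 16 with under 10 counts in each control library, and none of the 10 that reached 100 counts in control passed the test as higher. For an equal gain in CPM, a fold threshold is reached more easily from a low control level. The rule for calls thus favours such members by itself. With edgeR's quasi-likelihood test and Benjamini-Hochberg adjustment over all genes tested, 10 of the 40 members were called higher after light, which required a log2 fold change of 2 or more beside an adjusted p below 0.05: Mki67, Top2a, Cdk1, Pbk, Rrm2, Aurkb, Prc1, Birc5, Ube2c and Hmmr. Over all 14349 genes tested, 2.89% were called higher by this rule. By adjusted p alone, 14 members were higher, adding Anln, Cenpf, Mcm6 and Foxm1, against 7.52% of all genes, and of these 4 Anln, Mcm6 and Foxm1 held 10 to 21 counts in each control library. By the same rule 1 member, Cenpe, was lower, against 3.8% of all genes. Only 36 of the 40 had enough counts for the test, and a gene that is nearly silent in control passed that filter through its light libraries, so the counts are read over all 40. Both light libraries lay above both controls in 27 members, against 30.6% of all genes tested, and below both in 5, against 30.3% of all genes. In the same 27, both light libraries also lay above the minocycline libraries, against 18.1% of all genes with light above the other 4. The median difference over the 40 members was 1.26 on the log2 CPM scale (prior count of 2), and over all genes tested it was 0.0049. In bulk RNA, more cells with a transcript and more transcript per cell cannot be told apart, and the same holds for a fall.

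The count of calls rested on the control libraries. Without control replicate 1 no member was called by edgeR, although 13 were higher by the fold and an unadjusted p under 0.05, against 3.29% of all genes by that rule, and the whole table then held 3 genes called higher. Without control replicate 2 Kif4 alone was called, among 13 genes over the whole table. DESeq2 on all 4 libraries called 8 members, among 464 genes called higher over the whole table, against 415 with edgeR. Over the 4 fits that each leave out 1 library, the log2 fold change of Mki67 ranged from 4.65 to 6.37. That of Top2a ranged from 4.58 to 6.38.

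Mki67 lies on chromosome 7 at 135689784-135716361 (GRCm38, minus strand). It held 5 and 2 counts in control, 110 and 381 after light and 12 and 9 with minocycline, or 0.355 and 0.141, 6.43 and 18.1, and 0.522 and 0.477 CPM. All light values were above all others, and light replicate 2 was 2.82 times light replicate 1. The log2 fold change after light was 5.60 ± 0.71 (SE, adjusted p = 0.0101 by edgeR). Top2a, on chromosome 11 at 98992943-99024189 (minus strand), held 3 and 1 counts in control, 61 and 196 after light and 5 and 6 with minocycline. Its log2 fold change after light was 5.44 ± 0.71 (SE, adjusted p = 0.0081 by edgeR). These had the highest levels per length that any of the 10 called members reached after light, 1.22 and 1.23 RPKM, which is still far below Ccna2 or Pcna in the same libraries, at 20.9 and 18.1 RPKM.

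**Figure D2:**
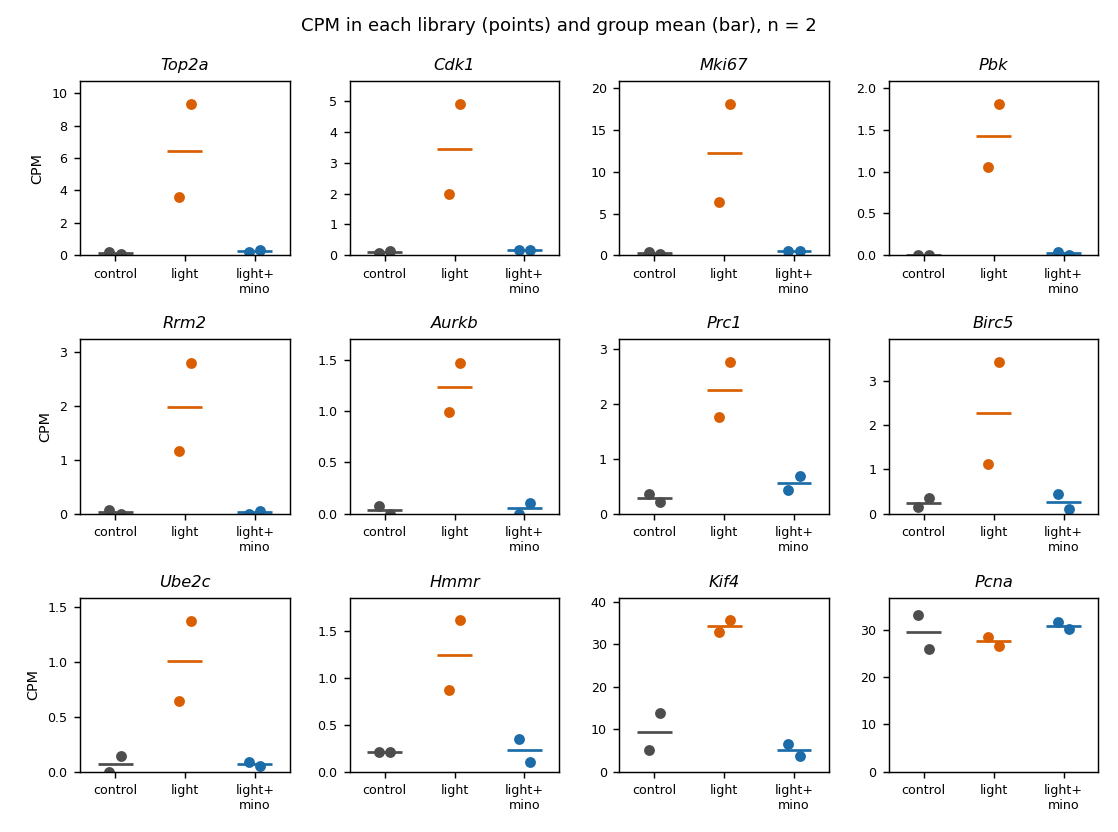
CPM in each library (points) and the group mean (bars, n = 2) for the 10 members called higher after light and, for comparison, Kif4 and Pcna, each with its own axis from 0. In the 10 called members and Kif4 both light libraries stand above the other 4, with light replicate 2 the higher, while the control libraries of Pcna, at 33.1 and 26.1 CPM, enclose its other 4 values.

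Among the cyclins and their partners the response was uneven. Cdk1, the kinase that drives entry into mitosis, held 1 and 2 counts in control, 34 and 103 after light and 4 and 3 with minocycline. With only 3 control counts, its light level was 33.8 times control with a 95% interval of 11.3 to 166 that covers counting error only (adjusted p = 0.0082 by edgeR). Ccnb1, the cyclin B1 partner of Cdk1, went from 0 and 0 counts to 8 and 10, at least 4.44-fold higher, too few counts for the test. Ccnb2 held 13 and 20, 37 and 64, and 15 and 23 counts, with no overlap of light and control but an adjusted p of 0.104. Foxm1, a transcription factor of G2 and M genes, held 15 and 10 counts in control, 32 and 81 after light and 19 and 20 with minocycline, a log2 fold change of 1.70 ± 0.49 (SE, adjusted p = 0.0491 by edgeR). Foxm1 had an adjusted p of 0.104 with DESeq2 and of 0.119, 0.240 and 0.496 without control replicate 1, control replicate 2 and light replicate 2.

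Neither cyclin with at least 100 counts in control passed. Ccne2 held 107 and 102 counts in control, 191 and 267 after light and 203 and 142 with minocycline, which in CPM is 7.61 and 7.18, 11.2 and 12.7, and 8.84 and 7.52. Its log2 difference of 0.69 ± 0.25 (SE) did not pass (adjusted p = 0.0944 by edgeR), and with plain library totals it was 0.93 (adjusted p = 0.0395). Ccna2 held 1225 and 1669 counts in control, 1421 and 1451 after light and 1484 and 1486 with minocycline, or 87.1 and 117.5, 83.0 and 68.9, and 64.6 and 78.7 CPM. Both light libraries were below both controls in CPM, by a log2 difference of −0.43 ± 0.18 (SE) that did not pass (adjusted p = 0.138 by edgeR). It was −0.63 without control replicate 1, −0.20 without control replicate 2 and −0.19 with plain library totals.

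Of the 9 mitotic kinases and checkpoint proteins, 3 were called. Pbk, a mitotic kinase, held 0 and 0 counts in control, 18 and 38 after light and 1 and 0 with minocycline. It was at least 13.8-fold higher after light (adjusted p = 0.0101 by edgeR). Aurkb, the Aurora kinase that corrects chromosome attachment, held 1 and 0, 17 and 31, and 0 and 2 counts, a ratio of 35.5 with a counting interval of 6.08 to 1432 (adjusted p = 0.0132 by edgeR). Birc5, or survivin, which belongs to the same complex, held 2 and 5, 19 and 72, and 10 and 2 counts, with a log2 fold change of 3.18 ± 0.72 (SE, adjusted p = 0.0246 by edgeR), and light replicate 2 was 3.08 times light replicate 1 in CPM. A pair of kinases too low for the test was above control in both light libraries. Bub1 of the spindle checkpoint held 1 and 0 counts in control and 7 and 29 after light, and Melk, a kinase of G2 and M phase, 0 and 0 and then 4 and 15, at least 4.69-fold higher.

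The rest of this group did not pass. Plk1, the Polo-like kinase, held 23 and 31 counts in control and 24 and 48 after light, and Aurka, the spindle pole kinase, 24 and 18 and then 22 and 35, with log2 differences of −0.039 and −0.0021. Ttk, which starts the checkpoint, held 20 and 15 counts in control and 35 and 50 after light (adjusted p = 0.209 by edgeR). Bub1b held 417 and 274 counts in control, 280 and 305 after light and 496 and 347 with minocycline. In CPM it was lower in both light libraries than in both controls, at 16.4 and 14.5 against 29.6 and 19.3. The log2 difference of −0.66 ± 0.23 (SE) did not pass (adjusted p = 0.0868 by edgeR), although it did without the low-count filter (0.0427). With plain library totals it was −0.43 (adjusted p = 0.244 by edgeR). Without control replicate 1 and control replicate 2 it was −0.33 and −0.95.

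Prc1, which bundles the microtubules of the central spindle, held 5 and 3 counts in control, 30 and 58 after light and 10 and 13 with minocycline. Its log2 fold change of 2.97 ± 0.55 (SE, adjusted p = 0.0138 by edgeR) is given without knowing how many of its reads fall in 670 exon bases shared with Rccd1 on the other strand, whose log2 difference was −0.16 (adjusted p = 0.595). Hmmr, a spindle-associated protein, held 3 and 3, 15 and 34, and 8 and 2 counts, a log2 fold change of 2.53 ± 0.62 (SE, adjusted p = 0.0278 by edgeR). Its call was lost with DESeq2 (adjusted p = 0.129) and in a fit of all 6 libraries (0.0533). Cenpf, a kinetochore protein of G2 and M, held 7 and 8, 24 and 58, and 14 and 15 counts. Its log2 fold change of 1.97 ± 0.52 (SE, adjusted p = 0.0354 by edgeR) was just below the fold threshold, and its adjusted p was 0.107 with DESeq2 and 0.143, 0.168 and 0.421 without control replicate 1, control replicate 2 and light replicate 2. Of the remaining spindle proteins, Nusap1, Kif11 and Kif23 were above both controls in both light libraries without passing, with log2 differences of 1.30, 1.16 and 1.23. Kif20a and Tpx2 overlapped with control, at 0.17 and 0.31.

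Cenpe was the member that fell. It held 255 and 244 counts in control, 182 and 197 after light and 250 and 237 with minocycline, or 18.1 and 17.2, 10.6 and 9.35, and 10.9 and 12.6 CPM. Thus both light-exposed groups were below control, and the log2 fold change after light was −0.82 ± 0.22 (SE, adjusted p = 0.0365 by edgeR). Its adjusted p was 0.110, 0.133 and 0.282 without control replicate 1, control replicate 2 and light replicate 2, and 0.0944 with plain library totals. The 6 rod markers were also lower in both light libraries than in both controls, with a median log2 difference of −0.86, and their part in the lower values of Cenpe was not tested.

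Kif4, on the X chromosome at 100625737-100727214 (plus strand), stood apart. It held 73 and 195 counts in control, 561 and 750 after light and 152 and 70 with minocycline, or 5.19 and 13.7, 32.8 and 35.6, and 6.62 and 3.71 CPM. The light libraries agreed closely, with a ratio of 1.09, while the controls differed by a larger ratio than those of any other member with at least 100 counts in control. The log2 difference after light was 1.86 ± 0.44 (SE), and it did not pass (adjusted p = 0.0554 by edgeR). It passed with DESeq2 (adjusted p = 7.24e-06), in edgeR with plain library totals (0.0297), without robust estimation (0.0174) and without control replicate 2 (0.0052). Control replicate 1, the library with abundant Xist, was the lower control. Kif4 shares 753 exon bases with Pdzd11 on the opposite strand, which held 402 and 304, 507 and 570, and 770 and 490 counts and had a log2 difference of 0.19 after light (adjusted p = 0.560). Kif4 thus had a higher control level per length than Mki67 and Top2a and a smaller spread between the light libraries.

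Of the 4 proteins of cytokinesis and the anaphase-promoting complex pathway, 1 was called. Anln, or anillin of the cleavage furrow, held 16 and 20 counts in control, 59 and 89 after light and 24 and 14 with minocycline, a log2 fold change of 1.59 ± 0.39 (SE, adjusted p = 0.0278 by edgeR). Its adjusted p was 0.0507 with DESeq2 and 0.115, 0.128 and 0.127 without control replicate 1, control replicate 2 and light replicate 2. Racgap1 held 496 and 361, 408 and 429, and 596 and 534 counts, and its log2 difference of −0.45 ± 0.20 (SE) did not pass (adjusted p = 0.164 by edgeR). Leaving out 1 library gave −0.68 to −0.21. Ube2c, the ubiquitin-conjugating enzyme of the complex, held 0 and 2 counts in control, 11 and 29 after light and 2 and 1 with minocycline. Its light level was 14.8 times control with a counting interval of 3.84 to 126 (adjusted p = 0.0273 by edgeR, and 0.0873 with DESeq2). The edgeR log2 fold change of 3.73 was 2.79 without control replicate 1. It was 7.16 without control replicate 2, which left 0 control counts. Ube2c shares 592 exon bases with Tnnc2, which held 11 counts in each light library and 95 in minocycline B. Cdc20, the activator of the complex, held 5 and 7 counts in control and 19 and 30 after light (adjusted p = 0.0718 by edgeR).

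DNA replication genes had the smallest median difference of the roles, 0.15 on the log2 CPM scale over 9 genes, against 2.26 over the 9 kinases and checkpoint proteins and 1.16 over the 10 motor and spindle proteins. It was 0.53 and 0.26 without light replicate 1 and light replicate 2, and 0.31 and 0.25 without control replicate 1 and control replicate 2. Rrm2, the small subunit of ribonucleotide reductase that is made in S phase, was the exception that was called, with 1 and 0 counts in control, 20 and 59 after light and 0 and 1 with minocycline. Its light level was 58.5 times control with a counting interval of 10.2 to 2339 (adjusted p = 0.0112 by edgeR). Its partner Rrm1 held 592 and 527, 575 and 708, and 949 and 794 counts, with a log2 difference of −0.23 ± 0.16 (SE, adjusted p = 0.363 by edgeR). The Rrm1 controls were 42.1 and 37.1 CPM, so a gain of 1.95 CPM as in Rrm2 could not be seen there. Whether the subunits differed in course was not tested. Tk1, the cytosolic thymidine kinase, held 1 and 4 counts in control and 10 and 42 after light and was too low for the test.

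Among the MCM helicase genes, Mcm6 held 18 and 21 counts in control, 51 and 91 after light and 41 and 33 with minocycline. Its log2 fold change was 1.41 ± 0.40 (SE, adjusted p = 0.0449 by edgeR). Its adjusted p was 0.103 with DESeq2 and 0.148, 0.160 and 0.334 without control replicate 1, control replicate 2 and light replicate 2. Mcm2 held 208 and 240, 325 and 343, and 375 and 316 counts, or 14.8 and 16.9, 19.0 and 16.3, and 16.3 and 16.7 CPM, so that the groups overlapped (log2 difference 0.16, adjusted p = 0.649 by edgeR). Mcm3 and Mcm5 had log2 differences of 0.86 and 0.21 and did not pass. Tyms held 132 and 162, 170 and 210, and 200 and 196 counts and Pcna 466 and 370, 489 and 559, and 726 and 568. In CPM the light libraries of both lay within the range of the controls, and neither passed (adjusted p = 0.898 and 0.754 by edgeR). The sign of the small differences of Rrm1, Tyms and Pcna turned when plain library totals replaced TMM scaling.

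**Figure D3:**
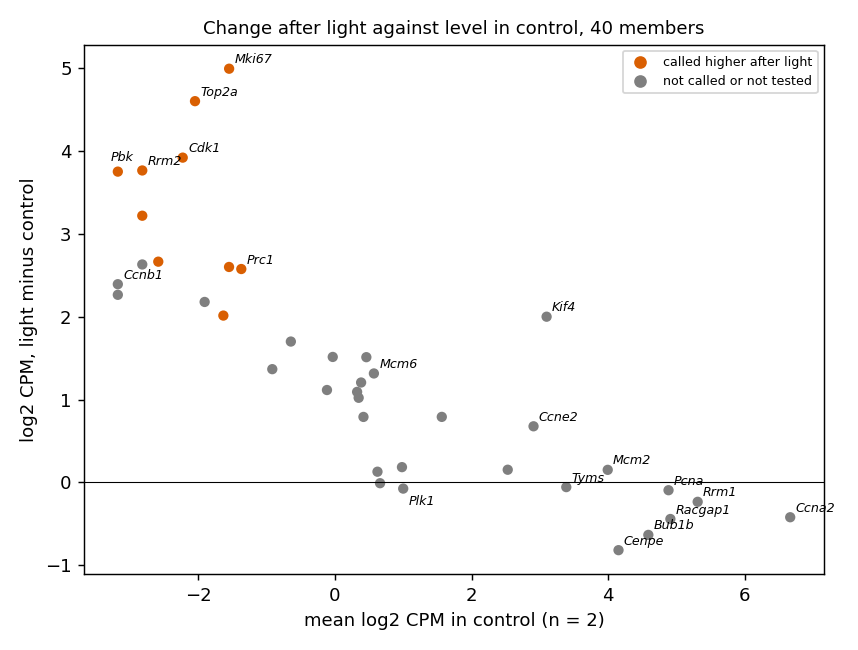
Mean log2 CPM in control (x axis, prior count of 2, n = 2) against the log2 CPM difference of light minus control (y axis) for the 40 members, with those called higher after light in orange. The called members lie at the left, at low control levels, and the members with the highest control levels lie near or below 0, with Kif4 between them. The log scale with a prior count compresses the change of the lowest genes. Both axes use the same control libraries.

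The summed level of the members rests mostly on those abundant in control. The 40 members together summed to 310.6 and 317.5 CPM in control, 325.3 and 354.4 after light and 262.4 and 276.4 with minocycline, so that both minocycline libraries lay below the other 4. The light mean was 1.08 times the control mean, and 1.25 times without Ccna2, which alone made up 26.3% of all counts of the members. The minocycline mean was 0.793 ± 0.056 times the light mean and 0.858 ± 0.034 times the control mean (SD carried over from both groups, n = 2 libraries each), and 0.749 and 0.934 times without Ccna2. Ccna2 itself was on average 30.6 CPM lower with minocycline than in control. Its controls lay far apart, at 87.1 and 117.5 CPM, against 64.6 and 78.7 CPM with minocycline. Mki67 and Top2a together went from 0.569 and 0.211 CPM to 9.99 and 27.4 CPM.

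Promoters of these genes are known to carry short elements read by cell cycle regulators, namely the cell cycle homology region (CHR) bound by the DREAM and MuvB complexes, CCAAT boxes bound by NF-Y, and E2F sites. For 33 of the 40 members the RefSeq table (GRCm38.p6) gave 34 promoters, from 250 bases before to 50 after the start. Both strands were searched. The CHR was spelled as TTTGAA with the variant spelling TTCGAA, and the box of NF-Y as CCAAT. The E2F core was spelled as TTCCCGC, with the related spelling TTGGCGC, the alternative spelling TTCGCGC and the remaining spelling TTGCCGC. An E2F core read on the other strand can overlap a CCAAT box by some letters. A CHR was found in 61.8% of the members' promoters and in 19.2% of all 32851, CCAAT in 82.4% and 37.4%, an E2F core in 26.5% and 9.57%, and CHR with CCAAT in 58.8% and 7.52%. The 25 promoters of genes outside replication held a CHR in 80% and an E2F core in 16%, and the 9 of replication genes in 11.1% and 55.6%. These matches are letters in a window and not bound sites.

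The elements were present in called and in other members. Among the members with a promoter, 6 of the 8 called genes and 13 of the 25 others held CHR with CCAAT. Printed here are 200 bases, from 175 before to 25 after the start, on the strand of the gene, with matches in capitals. Mki67 and Top2a, chosen after their values were seen, have the largest differences after light on the log2 CPM scale with a prior count of 2. Ccnb2 and Cdk1 stand for genes with CHR and CCAAT, Ccnb1 for a mitotic gene without a CHR match, Plk1 for one that did not pass the test, and Mcm5 and Mcm6 for the replication genes with E2F cores. The windows are chr7:135716355-135716554 for Mki67, chr11:99024165-99024364 for Top2a, chr9:70421530-70421729 for Ccnb2, chr10:69352888-69353087 for Cdk1 and chr13:100786462-100786661 for Ccnb1, all on the minus strand, chr7:122159260-122159459 for Plk1 and chr8:75109334-75109533 for Mcm5 on the plus strand, and chr1:128359681-128359880 for Mcm6 on the minus strand.
Mki67: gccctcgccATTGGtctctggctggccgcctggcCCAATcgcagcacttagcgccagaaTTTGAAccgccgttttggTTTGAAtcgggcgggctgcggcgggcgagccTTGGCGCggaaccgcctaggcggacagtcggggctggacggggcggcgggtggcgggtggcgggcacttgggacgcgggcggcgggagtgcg
Top2a: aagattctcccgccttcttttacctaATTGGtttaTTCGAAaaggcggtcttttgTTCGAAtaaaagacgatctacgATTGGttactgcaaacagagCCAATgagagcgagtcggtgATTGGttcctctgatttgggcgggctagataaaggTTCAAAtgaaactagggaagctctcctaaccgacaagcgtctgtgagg
Ccnb2: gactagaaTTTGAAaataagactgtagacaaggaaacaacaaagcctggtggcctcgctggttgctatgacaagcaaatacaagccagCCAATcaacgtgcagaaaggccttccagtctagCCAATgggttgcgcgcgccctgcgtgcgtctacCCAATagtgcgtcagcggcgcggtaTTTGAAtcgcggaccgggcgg
Cdk1: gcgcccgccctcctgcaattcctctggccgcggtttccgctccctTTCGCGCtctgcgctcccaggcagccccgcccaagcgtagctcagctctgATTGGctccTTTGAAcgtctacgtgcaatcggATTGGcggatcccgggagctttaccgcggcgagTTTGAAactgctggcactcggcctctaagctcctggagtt
Ccnb1: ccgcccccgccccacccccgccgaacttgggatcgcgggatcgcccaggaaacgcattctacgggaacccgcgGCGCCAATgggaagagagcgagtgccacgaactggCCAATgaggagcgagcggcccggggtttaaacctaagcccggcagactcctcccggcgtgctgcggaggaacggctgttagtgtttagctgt
Plk1: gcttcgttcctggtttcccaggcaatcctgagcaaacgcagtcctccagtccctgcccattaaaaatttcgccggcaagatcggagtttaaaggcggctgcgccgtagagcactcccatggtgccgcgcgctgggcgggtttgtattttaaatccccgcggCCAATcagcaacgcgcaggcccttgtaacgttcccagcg
Mcm5: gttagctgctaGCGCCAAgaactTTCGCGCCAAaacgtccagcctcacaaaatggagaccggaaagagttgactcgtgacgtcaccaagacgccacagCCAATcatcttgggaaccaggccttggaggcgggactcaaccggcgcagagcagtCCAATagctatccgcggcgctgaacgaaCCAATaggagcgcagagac
Mcm6: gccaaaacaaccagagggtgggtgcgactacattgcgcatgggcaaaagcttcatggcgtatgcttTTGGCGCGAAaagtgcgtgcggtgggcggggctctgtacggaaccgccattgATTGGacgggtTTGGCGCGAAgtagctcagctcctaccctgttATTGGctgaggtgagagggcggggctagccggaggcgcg

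Plk1 shows 1 CCAAT box, and its CHR match begins 31 bases after the start, outside the printed window. It held CHR with CCAAT as Cdk1 did, and its counts of 23 and 31 in control and 24 and 48 after light overlapped in CPM, whereas those of Cdk1 did not. Mcm6 and Mcm5 hold 4 and 3 E2F matches and no CHR in these windows, but neighbouring matches on opposite strands overlap, so that each has 2 separate stretches. Mcm5, at 89 and 72 counts in control and 83 and 173 after light, did not pass (adjusted p = 0.723 by edgeR), and whether it differed from Mcm6 was not tested.

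With minocycline the 10 members called after light held fewer counts in both libraries than in either light library, although none of these 10 differences passed by adjusted p in edgeR, and the member that did, Kif4, is not among them. Both minocycline libraries lay below both light libraries in 29 of the 40 members, against 28.7% of all 14750 genes tested. These comprised the 27 members above control after light plus Aurka and Plk1. The median difference over the 40 members was −1.32 on the log2 CPM scale, against −0.018 over all genes tested, and it was −0.91 without light replicate 2 and −1.55 without light replicate 1. By role, the median was −4.07 for Mki67 and Top2a, −1.54 for the kinases and checkpoint proteins, −1.41 for the cyclins and partners, −1.32 for the spindle and −0.30 for replication. The value for kinases was −0.91 without light replicate 2, and that for replication was −0.67 without light replicate 1, −0.20 without light replicate 2 and −0.18 without minocycline A. This comparison and that of light with control share the light libraries, so their opposite signs are not independent.

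By edgeR 1 member, Kif4, was called lower with minocycline than with light, with a log2 fold change of −2.70 ± 0.27 (SE, adjusted p = 0.0444), against 0.0339% of all genes. Its adjusted p was 0.0773 without light replicate 2. By unadjusted p with the fold threshold there were 12 members, against 2.45% of all genes, namely Kif4, Mki67, Top2a, Cdk1, Pbk, Rrm2, Aurkb, Anln, Ube2c, Tk1, Birc5 and Hmmr. Mki67 held 110 and 381 counts against 12 and 9, a log2 difference of −4.58 ± 0.60 (SE), yet its adjusted p was 0.0691. Top2a differed by −4.56 ± 0.63 and Cdk1 by −4.31 ± 0.64 (SE, adjusted p = 0.0691 each by edgeR). Rrm2 was 86.6 times lower with minocycline, with a counting interval of 15.1 to 3463, and Pbk 61.4 times, with an interval of 10.6 to 2467, on 1 count each over both minocycline libraries. The count depended on the method. DESeq2, a fit without the low-count filter and a fit of all 6 libraries each called 10 members lower. Over the whole table these fits called 297, 209 and 218 genes lower, against 5 in the main fit. Kif4 lost its call in edgeR with DESeq2 size factors or plain library totals, where no member was called, and without light replicate 2, where Mki67 alone was called.

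**Figure D4:**
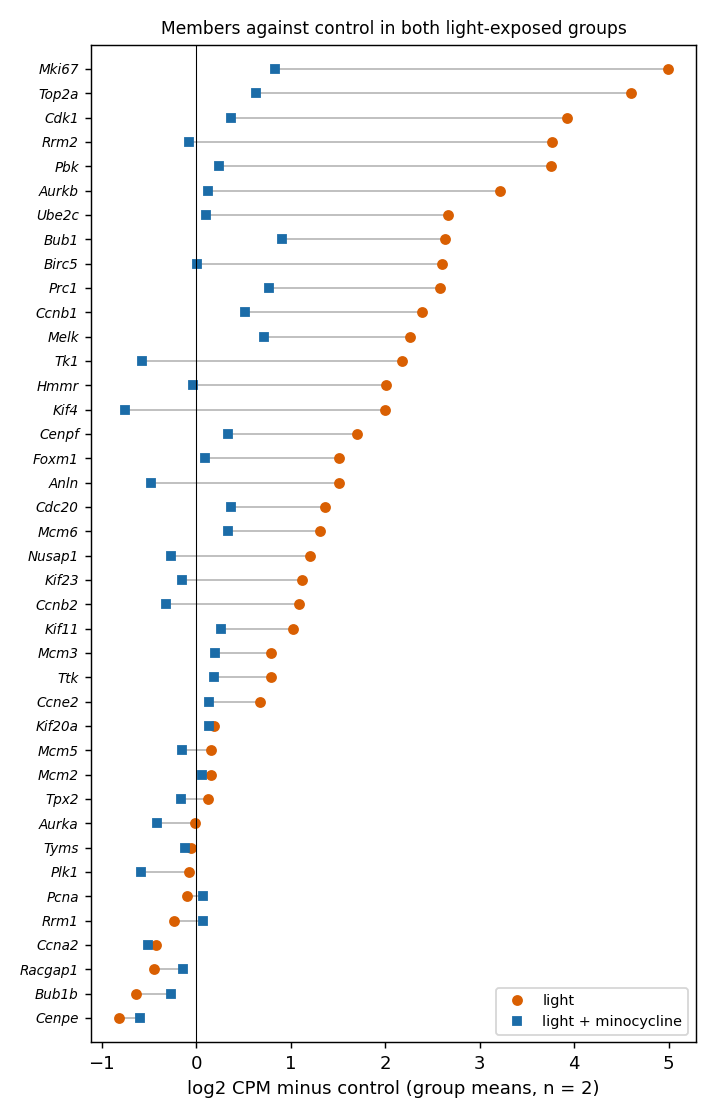
Log2 CPM difference from control (x axis, group means, n = 2, prior count of 2) for the light group (circles) and the light with minocycline group (squares), with the 40 members ordered by the light value. The squares lie between −0.76 (Kif4) and 0.91 (Bub1), while the circles reach 4.99 for Mki67. Both differences use the same control libraries.

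Between light with minocycline and control, no member passed by edgeR, in either direction, and none was called by DESeq2. Over all genes, 0.162% passed by adjusted p. The 25 members with enough counts for this edgeR test exclude every member called higher after light, so the result does not cover them. These are Mki67, Top2a, Cdk1, Pbk, Rrm2, Aurkb, Prc1, Birc5, Ube2c and Hmmr, which were low in both groups. By unadjusted p under 0.05 there were 2 members, Cenpe and Ccna2, both lower with minocycline, with adjusted p of 0.606 and 0.689, against 7.01% of all genes. Both minocycline libraries lay above both controls in 11 of the 40 members, against 15.9% of all 14181 genes tested, and below both in 6, against 24% of all genes. Mki67 and Top2a were among those above, at 12 and 9 against 5 and 2 counts and at 5 and 6 against 3 and 1 counts. Cdk1 held 7 counts over the minocycline libraries and 3 over the controls, a ratio of 1.58 with a counting interval of 0.360 to 9.45, so a difference was not detectable at this depth. For Pbk, Ccnb1, Melk, Aurkb, Rrm2 and Ube2c both groups were at or under 3 counts, and no fold is given. The median difference over the 40 members was 0.073 on the log2 CPM scale, against −0.021 over all genes tested, and it was 0.15 without control replicate 1, 0.041 without minocycline A and −0.014 without control replicate 2.

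The sum of the microglia and macrophage markers, like Mki67 and Top2a, was highest in the light libraries. The summed CPM of 14 microglia and macrophage markers was 63.1 and 76.0 in control, 543 and 1746 after light, and 127.0 and 62.7 with minocycline. All 14 markers were above both controls in both light libraries, against 30.6% of all genes tested. Only 3 of the 14 passed after light by adjusted p in edgeR. The 6 markers of homeostatic microglia summed to 11.5 and 8.10, 28.9 and 72.5, and 16.1 and 9.27 CPM, and not all of them followed the light libraries, since Siglech held 18 and 16, 21 and 36, and 51 and 19 counts. Light replicate 2 exceeded light replicate 1 in 34 of the 40 members, with a median CPM ratio of 1.47 and a range of 0.83 to 3.41. Per 1000 CPM of these markers, Mki67 and Top2a together had 9.01 and 2.78 CPM in control, 18.4 and 15.7 after light, and 5.83 and 12.7 with minocycline, where the control values rest on 8 and 3 counts and the minocycline values on 17 and 15. Other marker sums also differed between the groups. Among markers of retinal progenitors, Nes held 106 and 94 counts in control, 149 and 329 after light and 159 and 164 with minocycline, and Pax6, also known from mature retinal neurons, held 2714 and 3085, 4132 and 6743, and 5181 and 3499 counts, neither of which passed after light (adjusted p = 0.120 and 0.112 by edgeR). The 7 Müller glia markers summed to 2858 and 1921 CPM in control, 3541 and 4802 after light and 3687 and 2820 with minocycline, and the 4 astrocyte markers to 29.3 and 34.6, 80.8 and 123.4, and 43.6 and 43.0 CPM. Neutrophil, lymphocyte and monocyte markers summed to at most 1.38, 1.76 and 1.70 CPM in any library, which is near the level of several called members. Among them Ccr2 of monocytes held 0 and 0 counts in control, 10 and 12 after light and 1 and 0 with minocycline, and S100a8 of neutrophils 1 and 0, 7 and 24, and 4 and 2. Which cells held the transcripts of the 40 members cannot be read from bulk RNA and was not tested.

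**Figure D5:**
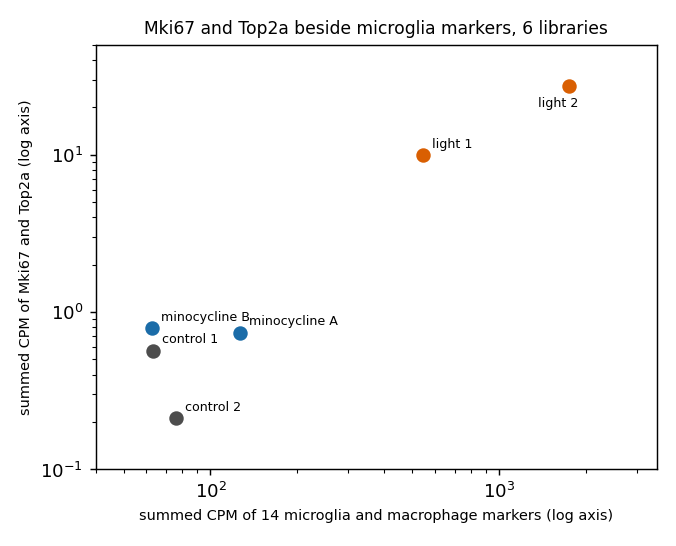
Summed CPM of 14 microglia and macrophage markers (x axis, log) against summed CPM of Mki67 and Top2a (y axis, log) in the 6 libraries. The light libraries lie at 543 and 1746 CPM of markers and 9.99 and 27.4 CPM of Mki67 and Top2a, and the other 4 lie at no more than 127.0 and 0.795 CPM.

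A further 167 cell cycle genes outside the 40, listed by their roles, are given for comparison. Of these, 142 had enough counts for the test of light against control, 5 were called higher and none lower, 7 were higher by adjusted p alone and 4 lower. Set against 2.89%, 7.52% and 3.8% of all genes, these counts are close to or below the background, and the genes below are given as single values. Their median difference was 0.45 on the log2 CPM scale over 79 further mitotic genes, −0.15 over 51 further replication genes and 0.22 over 37 genes of G1 control. Without light replicate 2 the values for mitotic and G1 genes were 0.16 and 0.083, without light replicate 1 that for mitotic genes was 0.68, without control replicate 1 that for G1 genes was 0.11, and without control replicate 2 that for replication genes was −0.041. The 8 with the smallest adjusted p are named here. Uhrf1, which maintains DNA methylation in S phase, held 1 and 4 counts in control and 16 and 54 after light, a log2 fold change of 3.28 (adjusted p = 0.0249 by edgeR). Ncaph of condensin rose by 3.10 and Myc, a growth regulator, by 2.76 (both adjusted p = 0.0281), and Cks1b, a partner of cyclin-dependent kinases, by 2.07 (adjusted p = 0.030). Cdkn1a, the inhibitor p21 that halts the cycle, rose by 1.29 (adjusted p = 0.0165), from 135 and 127 to 294 and 588 counts. Brca1 of DNA repair fell by 1.05 (adjusted p = 0.0181), Lmnb1, a lamin, by 0.59 (adjusted p = 0.0280) and Pold1, a replicative polymerase, by 0.65 on the log2 scale (adjusted p = 0.0327).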

How the data were processed

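The 6 libraries held RNA of mouse retinas, 2 per group. The authors made stranded mRNA libraries, aligned the reads with STAR to mm10 and counted them per gene with RNA Express. The deposited values are whole-number counts per gene without normalization. The paper calls its deposited counts normalized by DESeq2, but DESeq2 size factors of the table were 0.80 to 1.29, so it was treated as raw. Versions, gene annotation and the use of strand are not given in the sources used here, so reads in opposite-strand overlaps may fall to either gene. No value column was left out (0 unused).

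The 40 members and all gene lists were chosen with earlier results of these data known. Each pair of groups was tested with edgeR 4.0.16 (R 4.3.3), using filterByExpr, TMM scaling, robust quasi-likelihood F test, Benjamini-Hochberg adjustment over all tested genes. Calls required a log2 fold change of 2 or more in size, the cutoff of the study, beside an adjusted p below 0.05. DESeq2 1.42.0 was an alternative. Both were tested on simulated data. SE is the fold change over the root of F. Log2 CPM used a prior count of 2. For 1 to 3 counts in a group, ratios carry exact 95% counting intervals, which cover counting error only, and for 0 counts a bound is given at 3 counts over the group. An exact permutation test of 2 against 2 libraries cannot go under p = 0.333, so single sums got no test. P-values measure the spread between 2 libraries a group. RPKM used exon lengths of GENCODE genes on GRCm38. Values by library are given for members with an adjusted p under 0.05 in any comparison (at most 20), for Mki67, Top2a, Cdk1, Pcna, Mcm2 and Foxm1, and for members with at least 100 counts in a control library. Of other cell cycle genes, the 8 with the smallest adjusted p are named. Other genes shown by library, such as Ccnb1 and Plk1, go with the promoters or the limits of detection. Alternatives were another normalization, filters, DESeq2, 1 fit of all libraries, a replicate block and leaving out each library. One result on marker genes is not reported here.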

Additional observations from a re-analysis of the deposited data

How the results depend on the processing

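The count of 10 members called higher after light was 7 to 15 under all alternatives but 3. It was 0 where every library had to hold at least 10 counts, which removes the members that were nearly silent in control, and leaving out a library gave 0 (control replicate 1), 1 (control replicate 2), 7 (light replicate 2) and 15 (light replicate 1), with the lone remaining library assumed to vary like the other group. The replicate block left the count at 10, and with it Kif4 (adjusted p = 1.06e-08) and Bub1b (0.0414) passed by adjusted p. Replicate numbers did not pair control and light libraries (correlation of deviations −0.011 over 2 pairs). No paired analysis was possible because, for both comparisons with minocycline, the columns of that group carry 1 shared number.

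The count of 1 member called lower with minocycline than with light became 10 with DESeq2, 10 without the filter, 10 in 1 fit of all 6 libraries and 12 by unadjusted p with the fold, and 0 with DESeq2 size factors and 0 with plain library totals; leaving out a library gave 1 to 11. The number of genes called lower over the whole table changed likewise. It was 5 in the main fit, 297 with DESeq2, 209 without the filter and 218 in the fit of all 6 libraries. By unadjusted p with the fold it was 361, with DESeq2 size factors 2 and with plain library totals 0. The cause of these changes was not tested. Against control, no alternative called a member with minocycline. Plain library totals moved the median of all genes by 0.24 after light and −0.17 between minocycline and light, and the ratio of the summed CPM of members from 1.08 to 1.28 (light to control), 0.793 to 0.710 (minocycline to light) and 0.858 to 0.908 (minocycline to control); without Ccna2 the first and last were 1.25 and 0.934. After light, the sign turned for Rrm1 (0.0039), Tyms (0.18) and Pcna (0.14) with plain library totals. Leaving out a library gave −0.20 to 0.081 for Tyms (above 0 without control replicate 2) and −0.27 to 0.076 for Pcna (above 0 without control replicate 1). Between minocycline and light it gave −0.23 to 0.089 for Ccna2 (above 0 at 0.060 without light replicate 1, and without minocycline A), −0.20 to 0.025 for Mcm2 (above 0 without light replicate 1) and −0.19 to 0.098 for Tyms (above 0 without minocycline A). None of these 9 passed the test. Over the other named values, 424 kept direction and side of the threshold, 54 lost it and 43 gained it.
With 8 members at 3 counts or fewer over both controls, folds of the lowest genes have wide intervals, and 2 libraries a group limit every test.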
